A study of Mus musculus with 8 samples.

Results

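Troponin is the calcium switch of striated muscle, and 8 mouse genes encode the skeletal and cardiac isoforms of its subunits. They are Tnnt1, Tnnt2 and Tnnt3 for troponin T, Tnni1, Tnni2 and Tnni3 for troponin I, and Tnnc1 and Tnnc2 for troponin C. The members were every non-control probe that the array files name with one of these symbols. This gave 10 probes for the 8 genes, 2 each for Tnnt1 and Tnnt3 and 1 for each of the others, out of 55681 distinct probes on the array. All 10 were well above background on all 8 arrays and were among the 24997 probes tested.

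RNA came from C2C12 cells, an established mouse myoblast line that fuses into myotubes when serum is lowered, on day 4 of differentiation. The cells had received either a control siRNA (4 arrays) or an siRNA against macroH2A1.1 (4 arrays), a splice form of a histone H2A variant named for its large macrodomain. No other genotype or agent separates the groups in the labels, although one characteristic of the second group names a knockout where the titles and the design text name an siRNA. All 8 samples are of a single cell line in culture, with no innervation and no cardiac or adult slow or fast muscle beside them. The replicates are called biological in the design text, but how the cultures were divided is not stated, so the p-values here rest on sample-to-sample spread that may be technical.

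Troponin C binds calcium, troponin I holds the filament inhibited at rest, and troponin T fastens the complex to tropomyosin along actin. Adult slow fibres use Tnnt1, Tnni1 and Tnnc1, and adult fast fibres use Tnnt3, Tnni2 and Tnnc2. The heart uses Tnnt2 and Tnni3 and shares Tnnc1 with slow fibres. Developing skeletal muscle also expresses Tnnt2 and Tnni1 before the adult pattern is set, and Tnni3 is largely confined to the heart.

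Each array carried 59305 non-control spots, of which 46.9 to 49.8% were well above background, and none was saturated. Signals below are log2 processed intensity minus the array's own 75th percentile, so they compare a probe between arrays and not with another probe. The 3 probes of Macroh2a1 were lower in the macroH2A1.1 siRNA group with no overlap between groups, by 0.99, 1.11 and 1.42 on the log2 scale. Their adjusted p-values without pairing were 0.0538, 0.0538 and 0.138 over all probes. With 1 probe per gene Macroh2a1 passed, at 0.0400, and at 0.0136 when replicate numbers were taken as pairs. Whether these probes tell the macroH2A1.1 splice form from its sister form is not given in the sources used here. All 8 arrays lay on 1 slide, and each slide row held 2 arrays of each group.

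The probes are shown because they decide which isoform each signal reports. Each is 60 bases long, and positions are those in the array files, on build mm9. Probes for Tnnt2, Tnni1, Tnnc1 and 1 of those for Tnnt3 covered more of the genome than their own length, so each crossed at least 1 intron. Those for Tnnt2 (chr1:137747976-137748288, plus strand), Tnni1 (chr1:137705328-137706203, plus), Tnnc1 (chr14:32023360-32023776, plus) and the Tnnt3 pair (probe a at chr7:149698467-149698526 and probe b at chr7:149698500-149700262, plus) read, 5′ to 3′, as follows, with the Tnni3 probe (chr7:4472043-4472102, minus).
Tnnt2: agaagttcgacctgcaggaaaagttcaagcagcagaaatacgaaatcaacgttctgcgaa
Tnnt3 probe a: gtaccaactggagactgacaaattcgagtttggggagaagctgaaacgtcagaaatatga
Tnnt3 probe b: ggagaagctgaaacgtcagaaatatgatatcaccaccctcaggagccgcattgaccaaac
Tnni1: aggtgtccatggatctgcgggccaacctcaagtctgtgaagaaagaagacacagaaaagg
Tnni3: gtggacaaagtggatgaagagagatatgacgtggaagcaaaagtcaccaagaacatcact
Tnnc1: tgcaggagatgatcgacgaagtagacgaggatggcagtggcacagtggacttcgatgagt

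The Tnnt3 probes share a run of 27 bases and are therefore not independent of each other. No other 2 member probes share a run longer than 8 bases, and no other probe on the array shares a run of 20 bases with any of the 10. When best aligned, the Tnnt2 probe matches each Tnnt3 probe at 29 of 60 bases, and the Tnni1 probe at 28.

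The remaining probes contain AATAAA or ATTAAA, letters that are known as polyadenylation signals. For these 30 bases are shown, with these letters in capitals, for Tnnt1 probe a (chr7:4456265-4456324, minus), Tnnt1 probe b (chr7:4456172-4456231, minus), Tnni2 (chr7:149630251-149630310, plus) and Tnnc2 (chr2:164602661-164602720, minus).
Tnnt1 probe a: tctgtaactcaaAATAAAgtgcccccaggc
Tnnt1 probe b: ccatcaactgtcATTAAAgagagttcaagt
Tnni2: tggcctcgctccAATAAAggattcacatct
Tnnc2: gtgactggaaggAATAAAagttgacaatgt
Tnnt1 probe a contains AATAAA, and Tnnt1 probe b, which the array design pairs with 0 RefSeq transcripts, contains ATTAAA further along the minus strand.

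All 10 troponin probes had a higher mean in the macroH2A1.1 siRNA group (47.7% of all probes did), by 0.22 to 0.51 on the log2 scale, which is 1.16 to 1.43 times. Each was also higher in the macroH2A1.1 siRNA array of all 4 replicate numbers, against 16.5% of 24923 probes measured on every array and 22.0% of the 1798 probes at least as bright as the dimmest member other than Tnni3. The median difference was 0.36, beside -0.01 over all probes tested. Without pairing, 0 of 10 probes passed an adjusted p of 0.05 in limma, where 0% of all probes were called higher and 0.00400% lower. At an unadjusted p under 0.05 the count was 3 of 10 (Tnnt2, Tnnc2 and Tnnt1 probe b), against 4.97% of all probes called higher.

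Replicate numbers in the titles were taken as pairs, since arrays of the same number deviated from their group means together (r between 0.35 and 0.63 over all probes). Arrays of the same number also lay side by side in a slide row. A shared origin of the samples and a shared slide position therefore cannot be told apart. With the replicate number as a block, 10 of 10 troponin probes had an unadjusted p under 0.05, against 11.4% of all probes called higher. The probes correlate over the arrays, so these are not 10 separate results. Their adjusted p-values lay between 0.0555 and 0.150, so 0 of 10 passed, against 1.62% of all probes called higher and 1.53% lower. When each gene was represented by its brightest probe, which lowered the number of tests to 13832 genes, 5 of 8 troponin genes rose with the block: Tnnc2, Tnni1, Tnni2, Tnnt1 and Tnnt3, at adjusted p-values of 0.0366, 0.0390, 0.0401, 0.0452 and 0.0491. The background for this call was 4.08% of genes higher. Tnnt2 (0.0512), Tnni3 (0.0565) and Tnnc1 (0.104) did not pass. The calls stood close to the threshold: without replicate 1, 2 or 3 in both groups 0 of 8 passed, and without replicate 4 only Tnni1 did.

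**Figure D1:**
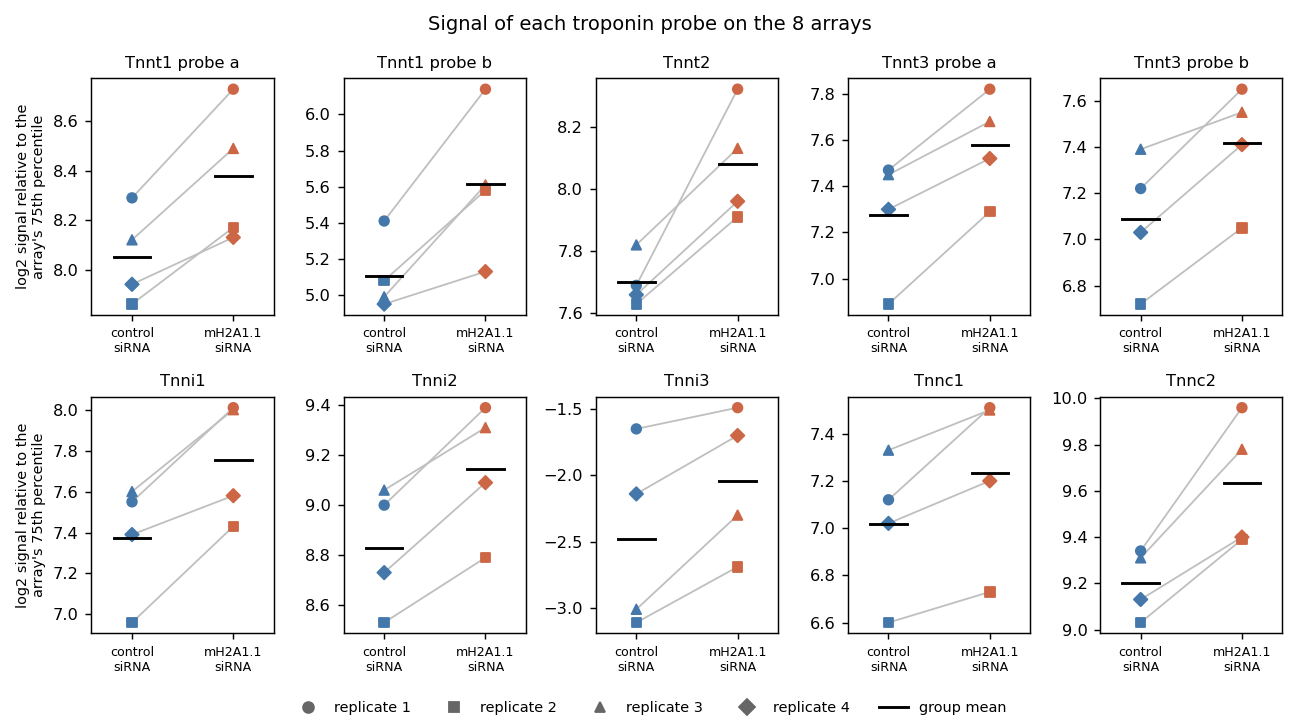
Signal on the log2 scale, centred on each array's 75th percentile (y axis, its own range in each panel), of the 10 troponin probes in the control siRNA (blue) and macroH2A1.1 siRNA (orange) arrays. Grey lines join arrays of one replicate number, symbols mark the number and bars mark group means of 4 arrays. Every line rises from left to right, while the groups separate without overlap only for Tnnt2 and Tnnc2.

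Troponin T of slow muscle, Tnnt1, read 8.29, 7.86, 8.12 and 7.94 on the 4 control arrays, in the order of replicates 1 to 4, by probe a. On the macroH2A1.1 siRNA arrays it read 8.73, 8.17, 8.49 and 8.13. The groups overlapped, since the lowest arrays of the siRNA group lay below the highest control array. The group means were 8.05 ± 0.19 and 8.38 ± 0.29 (SD, n = 4 each), a difference of 0.33 (SE 0.16 without pairing and 0.07 with it; limma adjusted p = 0.545 and 0.0699).

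Tnnt1 probe b, the probe with ATTAAA, gave 5.41, 5.08, 4.99 and 4.95 in the control group and 6.14, 5.58, 5.61 and 5.13 in the macroH2A1.1 siRNA group. Its difference of 0.51 (SE 0.21, or 0.11 with pairing) was the largest among the 10 probes, with limma adjusted p-values of 0.449 and 0.0642. Replicate 1 was the highest array of both groups. Without replicate 1 of the siRNA group the differences were 0.34 for probe b and 0.22 for probe a. Both probes showed the same direction, and over the 8 arrays they correlated at r = 0.90.

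Tnnt2, the cardiac troponin T that embryonic skeletal muscle and cultured myotubes also make, had the tightest control group of the set. It read 7.69, 7.63, 7.82 and 7.66 with control siRNA and 8.32, 7.91, 8.13 and 7.96 with macroH2A1.1 siRNA. No control array reached the lowest macroH2A1.1 siRNA array, so the groups did not overlap, as for 3.34% of all probes in this direction. The difference was 0.38 (SE 0.11; limma adjusted p = 0.302, and 0.0753 with pairing), from 7.70 ± 0.08 to 8.08 ± 0.19 (SD, n = 4).

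Fast troponin T, Tnnt3, was measured by 2 overlapping probes. Probe a read 7.47, 6.89, 7.45 and 7.30 in the control group and 7.82, 7.29, 7.68 and 7.52 in the macroH2A1.1 siRNA group. Probe b, which reaches into the next exon, read 7.22, 6.72, 7.39 and 7.03 and then 7.65, 7.05, 7.55 and 7.41. In both groups replicate 2 was the lowest array by both probes, and the groups overlapped. The differences were 0.30 (SE 0.17, or 0.07 with pairing) and 0.32 (SE 0.18, or 0.07 with pairing), with limma adjusted p-values of 0.608 and 0.607 without pairing and 0.0770 and 0.0758 with it. Without control replicate 2 the differences were 0.17 and 0.20.

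Troponin I of slow muscle, Tnni1, is also the form of developing muscle. It read 7.55, 6.96, 7.60 and 7.39 in the control group and 8.01, 7.43, 8.0 and 7.58 in the macroH2A1.1 siRNA group. Replicate 2 was again the lowest of each group, and the groups overlapped. The difference was 0.38 (SE 0.19, or 0.08 with pairing; limma adjusted p = 0.546 and 0.0592), and 0.25 without control replicate 2.

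Fast troponin I, Tnni2, read 9.0, 8.53, 9.06 and 8.73 and then 9.39, 8.79, 9.31 and 9.09. The macroH2A1.1 siRNA array was higher by 0.25 to 0.39 in each pair, the narrowest range of pair differences among the 10 probes. The difference was 0.32 (SE 0.17, or 0.07 with pairing; limma adjusted p = 0.599 and 0.0648).

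Tnni3 encodes the cardiac inhibitory subunit. It read -1.65, -3.11, -3.01 and -2.14 in the control group and -1.49, -2.69, -2.30 and -1.70 in the macroH2A1.1 siRNA group. Its processed intensity was between 32.3 and 106.6, while the lowest intensity called well above background was at most 15.8 on any array. The probe was thus measured on every array, but close to the background. The difference of 0.43 (SE 0.38, or 0.10 with pairing) had limma adjusted p-values of 0.794 and 0.0797. It was 0.18 with the authors' series values and 0.25 with normexp background correction, 0.22 without control replicate 2 and 0.71 without control replicate 1. It was also 0.26 without control replicate 3 and 0.25 without macroH2A1.1 siRNA replicate 1.

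Troponin C of slow and cardiac muscle, Tnnc1, had the smallest difference of the 10 probes. It read 7.12, 6.60, 7.33 and 7.02 in the control group and 7.51, 6.73, 7.50 and 7.20 in the macroH2A1.1 siRNA group. Replicate 2 lay lowest in both, and the siRNA group's replicate 2 lay below 3 of the 4 control arrays. The difference was 0.22 (SE 0.21, or 0.07 with pairing; limma adjusted p = 0.822 and 0.150). It was 0.08 without control replicate 2, 0.13 without replicate 1 or replicate 3 of the siRNA group, and 0.39 without that group's replicate 2.

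Fast troponin C, Tnnc2, read 9.34, 9.03, 9.31 and 9.13 in the control group and 9.96, 9.39, 9.78 and 9.40 in the macroH2A1.1 siRNA group. Every macroH2A1.1 siRNA array lay above every control array. The means were 9.20 ± 0.15 and 9.63 ± 0.28 (SD, n = 4), a difference of 0.43 (SE 0.15, or 0.08 with pairing). The adjusted p in limma was 0.385, and with pairing 0.0555, the lowest paired value of the 10 probes.

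**Figure D2:**
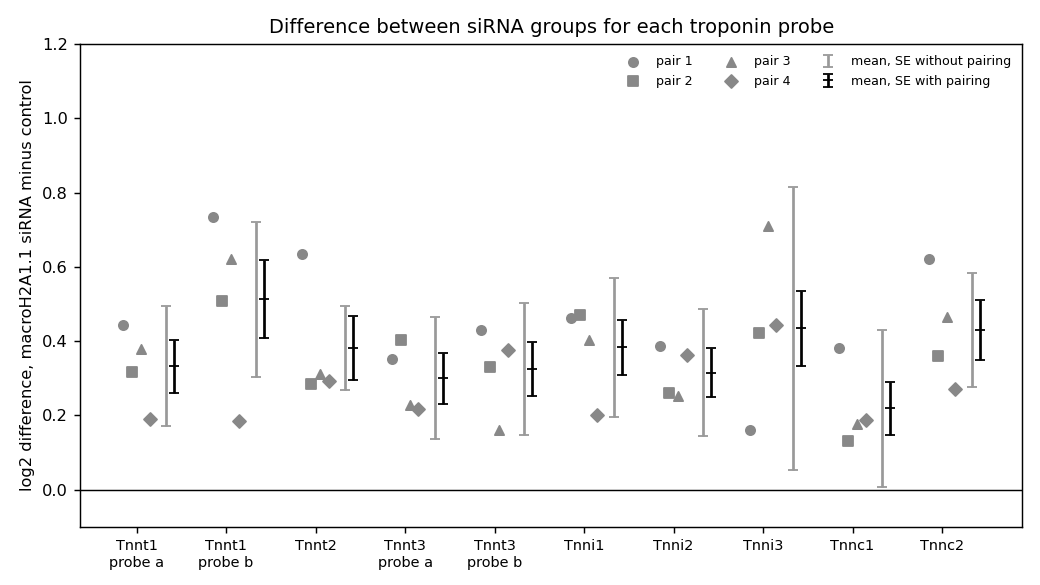
Difference in log2 signal, macroH2A1.1 siRNA minus control siRNA (y axis), for each of the 10 troponin probes (x axis). Grey symbols are the differences of the 4 replicate pairs, and bars are the mean ± 1 SE from limma without pairing (grey) and with it (black). All 40 pair differences lie above 0, and pairing narrows every bar.

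Variation in the troponin probes went with the replicate number as well as with the siRNA. Over the 8 arrays, replicate number took from 19.7% (Tnnt2) to 85.1% (Tnnc1) of each probe's sum of squares, and the siRNA took from 12.4% (Tnnc1) to 69.9% (Tnnt2). For 8 of the 10 probes the larger share belonged to the replicate number, the exceptions being Tnnt2 and Tnnc2. The replicate number has 4 levels, more than the siRNA, so on average its share would be larger even if neither had an effect. The shares therefore do not rank the replicate number against the siRNA. At most 10.4% was left for the rest. The 45 pairs of probes correlated over the 8 arrays at r between 0.43 and 0.99 (median 0.86), values that the shared replicate pattern and the shared siRNA groups both enter. The closest pair of different genes was fast Tnni2 with fast Tnnt3 probe b (r = 0.99), followed by slow Tnni1 with fast Tnnt3 probe a (r = 0.98). Close correlation thus joined slow with fast isoforms as well as fast with fast.

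**Figure D3:**
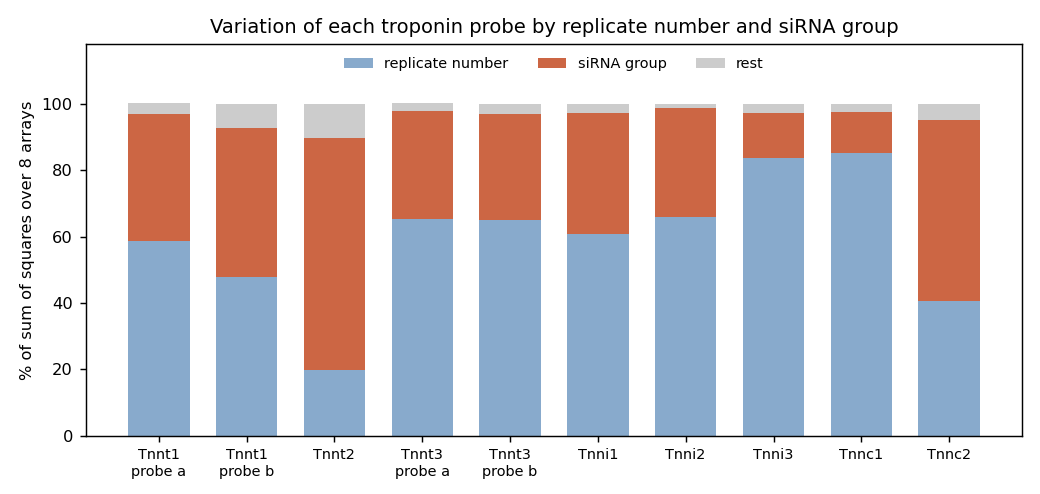
Share of the sum of squares over 8 arrays (y axis, %) that goes with the replicate number (blue), the siRNA group (orange) and the rest (grey) for each troponin probe (x axis). Replicate number holds the largest share in 8 of 10 probes, and the siRNA group in Tnnt2 and Tnnc2. Replicate number has more levels than the siRNA group, so the shares are not an equal comparison.

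Markers of proliferating cells moved with the replicate number as well. The mean deviation, from their means over the 8 arrays, of 5 proliferation genes (of a list of 7, since Pax7 and Myf5 were not well above background on all arrays of either group) was 1.15 on control replicate 2 and 1.35 on macroH2A1.1 siRNA replicate 2, and -1.06 and -1.13 on replicate 3. Replicate 2, which had the highest proliferation signal, was the lowest array of its group for most troponin probes. Replicate 3 had the lowest proliferation signal of each group. In the macroH2A1.1 siRNA group replicate 1 was the highest array for every troponin probe. In the control group the highest array was replicate 3 for Tnnt2, Tnnt3 probe b, Tnni1, Tnni2 and Tnnc1, and replicate 1 for the other probes. The part of proliferation in the troponin signals was not tested. The summed signal of the proliferation genes is on the log2 scale relative to the 75th percentile. It ranged from 2.12 to 4.40 in the control group and from 2.05 to 4.59 in the macroH2A1.1 siRNA group. With the block 0 of 5 passed. Mki67, a gene of cycling cells, differed by -0.04 between groups (SE 0.09 with pairing).

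Myotube markers were higher on average with macroH2A1.1 siRNA. All 8 of them had a higher mean in the macroH2A1.1 siRNA group (median 0.33). Without pairing 0 of 8 passed, and 4 passed with the block, against 4.08% of all genes called higher: Myh8, the perinatal myosin (0.62), Des, the muscle intermediate filament desmin (0.58), Mylpf, the fast regulatory light chain (0.51), and Ckm, muscle creatine kinase (0.41). Myog, the myogenic factor that opens differentiation, differed by 0.06 and Myh3, the embryonic myosin, by 0.12, and neither passed. Without replicate 1 or replicate 3 in both groups the gene fit with the block called 0 of 13832 genes, so these calls and those of the next paragraph were lost. The summed myotube signal ranged from 9.25 to 9.83 in the control group and from 9.41 to 10.14 in the other. Its part in the troponin differences was not tested. In bulk RNA, fewer cells of a type and less RNA per cell cannot be told apart.

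Other cell types were looked for as well. Of 6 fibroblast genes 2 fell with the block, Dpt by 1.09 and Postn by 1.01, both genes of the extracellular matrix, against 3.87% of all genes called lower, and the summed signal of the list ranged from 8.49 to 8.77 in the control group and from 8.19 to 8.96 in the other. Of 8 cardiomyocyte markers 4 (Nppa, Myl7, Hand2 and Tbx5) were not well above background on all arrays of either group, and the summed signal of the rest ranged from 1.16 to 1.41 and from 0.82 to 1.24. All 4 tested had a lower mean with macroH2A1.1 siRNA, with a difference of -0.002 for Gata4 and of -0.13 for Nkx2-5 (SE 0.17 with pairing). Nppb differed by -0.45 (SE 0.10 with pairing) and was lower in all 4 pairs. It did not pass with the block (limma adjusted p = 0.0520). Only Myh6 fell with the block. The smooth muscle list (4 of 5 tested) ranged from 8.45 to 8.88 and from 8.62 to 8.87, with 0 passing with the block. Of 5 adipocyte markers only Fabp4 entered the fit, and only through the macroH2A1.1 siRNA group. It was well above background on all 4 arrays of that group but on 2 of the control arrays. Its difference of 1.41 thus rests in part on control signal near the background, and its p-value is not used. Its signal ranged from -5.22 to -2.76 and from -3.44 to -1.11. The part of these cell types in the troponin differences was not tested.

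The 2 slide rows gave the same direction for all 10 probes, which follows from the pair differences, since all of them lie above 0. In the slide row with replicates 1 and 2, the differences of the 10 probes ranged from 0.26 (Tnnc1) to 0.62 (Tnnt1 probe b), and in the row with replicates 3 and 4 from 0.18 (Tnnc1) to 0.58 (Tnni3). Each slide column held arrays of 1 group, so no column gives a difference of its own. With the column as a random block 0 of 10 probes passed.

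The design allows a test of whether the balance of slow and fast isoforms differed between the siRNA groups, since a ratio taken within an array cancels whatever scales both genes alike. For troponin T, the log2 ratio of Tnnt1 to Tnnt3 was 0.77 ± 0.15 in the control group and 0.80 ± 0.13 in the macroH2A1.1 siRNA group (SD, n = 4), a difference of 0.03 (two-sided exact permutation p = 0.7714, adjusted over the 3 ratios 0.7714). It was higher in 2 of 4 pairs, and its sign turned when control replicate 3 (-0.003), control replicate 4 (-0.012) or macroH2A1.1 siRNA replicate 1 (-0.003) was left out. For troponin I, the ratio of Tnni1 to Tnni2 was -1.46 ± 0.09 and -1.39 ± 0.08, a difference of 0.07 (exact p = 0.3429, adjusted 0.5143), higher in 3 of 4 pairs. It was 0.03 without control replicate 2, 0.04 without macroH2A1.1 siRNA replicate 3, and 0.02 with the series values or 0.025 with normexp background correction. The troponin T difference was 0.11 when the probes of each gene were averaged, 0.10 without control replicate 2 or without macroH2A1.1 siRNA replicate 4, and 0.01 without that group's replicate 2.

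Troponin C gave the largest difference between isoforms. The log2 ratio of Tnnc1 to Tnnc2 was -2.19 ± 0.19 in the control group and -2.40 ± 0.21 in the macroH2A1.1 siRNA group, a difference of -0.21, and it was lower in the siRNA array of all 4 pairs, by 0.09 to 0.29. The exact permutation p was 0.1714 (adjusted 0.5143). Within pairs it was 0.125, the smallest that 4 pairs can give (adjusted 0.375). The smallest exact p that 4 against 4 arrays can give is 0.0286. None of the 3 ratios passed, but with adjustment over 3 ratios this design cannot bring a single shifted ratio under 0.05, so these p-values do not tell whether the balance shifted. Without macroH2A1.1 siRNA replicate 2 the Tnnc1 to Tnnc2 difference was -0.12.

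**Figure D4:**
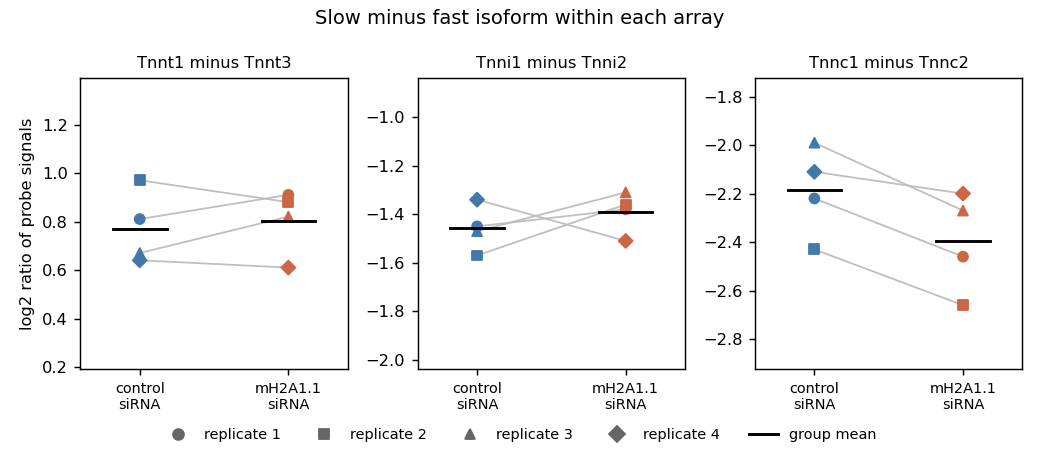
Log2 ratio of the slow to the fast isoform's probe signal within each array (y axis, the same span in each panel) for troponin T, I and C, in control siRNA (blue) and macroH2A1.1 siRNA (orange) arrays. Lines join arrays of one replicate number and bars are means of 4 arrays. The Tnnc1 to Tnnc2 lines all fall, by 0.09 to 0.29, while the other panels hold lines in both directions.

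Troponin I and troponin T genes lie beside each other in the genome in pairs. In the RefSeq order of genes on GRCm38.p6, used for the order of names only, slow Tnni1 and cardiac Tnnt2 on chromosome 1 have the coding gene Lad1 between them, fast Tnni2 and fast Tnnt3 on chromosome 7 have Lsp1, and cardiac Tnni3 and slow Tnnt1 on chromosome 7 have none. The member probes of these pairs are 41.8, 68.2 and 15.7 kb apart on mm9. The fast pair tracked most closely across the arrays (r = 0.99 for Tnni2 with Tnnt3 probe b), against r = 0.86 for Tnni1 with Tnnt2 and r = 0.59 for Tnni3 with Tnnt1 probe a. The dim signal of Tnni3 enters the last value. Genes on different chromosomes tracked each other closely too, such as Tnni1 with Tnnt3 probe a (r = 0.98) and Tnnt2 with Tnnc2 (r = 0.96). Whether adjacency enters these values was not tested.

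Promoter sequence was available here for 6 of the 8 genes, from RefSeq on GRCm38.p6, and the 250 bases before the start site were searched. Sequences are shown for the genes whose groups did not overlap, Tnnt2 (chr1:135836084-135836333, plus) and Tnnc2 (chr2:164779735-164779984, minus), and for the gene with the smallest difference, Tnnc1 (chr14:31208062-31208311, plus). Capitals mark E-boxes (CANNTG, the core bound by myogenic basic helix-loop-helix factors) and, where present, the MCAT element (CATTCC, bound by TEAD factors) on either strand.
Tnnt2: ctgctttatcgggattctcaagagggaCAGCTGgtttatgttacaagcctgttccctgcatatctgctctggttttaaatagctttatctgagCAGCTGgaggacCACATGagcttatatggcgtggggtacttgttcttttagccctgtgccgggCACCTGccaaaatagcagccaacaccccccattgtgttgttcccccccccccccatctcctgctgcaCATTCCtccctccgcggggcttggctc
Tnnc2: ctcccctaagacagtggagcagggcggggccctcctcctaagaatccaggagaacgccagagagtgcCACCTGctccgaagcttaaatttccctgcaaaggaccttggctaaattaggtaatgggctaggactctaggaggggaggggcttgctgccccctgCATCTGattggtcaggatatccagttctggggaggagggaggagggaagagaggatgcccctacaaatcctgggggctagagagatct
Tnnc1: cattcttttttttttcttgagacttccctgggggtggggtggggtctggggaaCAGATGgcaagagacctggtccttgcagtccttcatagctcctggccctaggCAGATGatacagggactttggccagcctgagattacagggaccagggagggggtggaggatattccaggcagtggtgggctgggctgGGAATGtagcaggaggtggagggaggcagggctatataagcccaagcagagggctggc

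The Tnnt2 window shown holds 4 E-boxes, and those of Tnnc2 and Tnnc1 hold 2 each. A Tnni1 window, not shown, also holds 4, and the groups of Tnni1 overlapped. Of all 32536 distinct promoter sequences of this length, 66.2% hold at least 1 E-box, and the share that holds more was not counted. An MCAT element is in the Tnnt2 window shown and, on the other strand, in that of Tnnc1 (12.6% of promoters). The other Tnnt2 window, not shown, holds 1 E-box and no MCAT element. The MEF2 box (2.89% of promoters) and the CArG box (1.48%) have no match in any window of the 6 genes. Tnnt1 holds TATAAA (12.3%), and the first Tnnt2 window, shown here, holds AGATAA (9.97%), the motif of GATA factors. The motif CCACCC (28.1%) is in the windows of Tnni1, Tnnt1 and Tnnc1 among the 6 genes. These matches are descriptions of the letters in the windows, and the arrays measured no binding to them.

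The troponin genes were then set beside the other genes of their pathway, 111 genes in 6 lists, of which 97 were tested with 1 probe per gene. Without pairing 0 of 97 passed in limma, where 0.00723% of all genes were called higher and 0.0145% lower. With the block 27 were called higher and 5 lower, where 4.08% of all genes were called higher and 3.87% lower. Without replicate 1 or replicate 3 in both groups none of these calls was made, and without replicate 2 there were 4 higher and 4 lower. Every gene named as risen or fallen in the next paragraphs is from the fit with the block.

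Of the partners on the thin filament, 10 of 20 tested rose and 0 fell, with a median difference of 0.33. Lmod2, a leiomodin that elongates actin at the pointed end, rose by 0.78 (SE 0.09; limma adjusted p = 0.0174), and Tmod1, the tropomodulin that caps that end, by 0.76 (SE 0.11; adjusted p = 0.0240). The actin-binding Xin proteins rose also, Xirp2 by 0.68 and Xirp1 by 0.55. Skeletal actin Acta1 (0.32; adjusted p = 0.0624) and cardiac actin Actc1 (0.09; adjusted p = 0.518) did not pass. Of the tropomyosins, to which troponin T binds, Tpm1 rose by 0.49 and Tpm2 by 0.35, while slow Tpm3 differed by -0.01.

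Slow fibre genes moved in both directions, 6 of 14 up and 2 down, with a median of 0.66. Myl3, which did not pass, is among the 14 but entered the fit only through the macroH2A1.1 siRNA group. It was well above background on all 4 arrays of that group but on 2 of the control arrays. Its difference of 0.92, which enters the median, thus rests in part on control signal near the background. Myl2, the slow and ventricular regulatory light chain, rose by 1.96 (SE 0.31; limma adjusted p = 0.0291). Fabp3, a fatty acid carrier, rose by 1.61 and Mybpc1, slow myosin binding protein C, by 1.26. Against this Myh7, the slow myosin heavy chain, fell by 1.32 (SE 0.11; adjusted p = 0.0126), and the related Myh7b fell by 0.90. The essential light chain Myl6b differed by 0.52 and did not pass. The slow troponins Tnnt1, Tnni1 and Tnnc1 differed by 0.33, 0.38 and 0.22.

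Fast fibre genes gave 5 of 15 up and 1 down, with a median of 0.26. The fast myosin heavy chains Myh2 and Myh1 rose by 2.19 (SE 0.16; limma adjusted p = 0.0114) and 1.49 (SE 0.19; adjusted p = 0.0197), and Mylpf by 0.51. Myh4, the other adult fast heavy chain of the list, differed by -1.05, was lower in all 4 pairs and did not pass (adjusted p = 0.0612). Casq1, the calcium store protein of fast fibres, fell by 1.19. Myl1 (0.26) and the glycolytic enzyme gene Pfkm (-0.05) did not pass. Myosin heavy chain genes are near-identical over long stretches, so signal shared between their probes was not tested.

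Cardiac genes were the list with the fewest measured members, 9 of 16, with 1 up (Csrp3, a Z-disc protein that slow fibres also use, 0.76), 1 down (Myh6, by 1.23) and a median of -0.05. Myl4, the atrial light chain of embryonic muscle, differed by -0.12 and did not pass. Tnnt2 and Tnni3, the cardiac troponins, differed by 0.38 and 0.43.

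Regulators of these genes mostly did not pass: of 27 tested, 3 rose and 1 fell, with a median of 0.07. Myf6, the myogenic factor of mature fibres, rose by 2.17 (SE 0.32; limma adjusted p = 0.0262), Tead4, a factor that binds MCAT elements, by 0.48, and Myod1 by 0.38. Eya4, a transcriptional cofactor, fell by 0.51. Mef2d differed by less than 0.01 in size. For calcium handling upstream of troponin, 5 of 22 rose and 1 fell, with a median of 0.17. Trdn, triadin of the calcium release complex, rose by 1.03, the slow calcium pump Atp2a2 by 0.96 and junctophilin Jph1 by 0.58. Cacna1s, the voltage sensor, differed by 0.14 and did not pass.

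**Figure D5:**
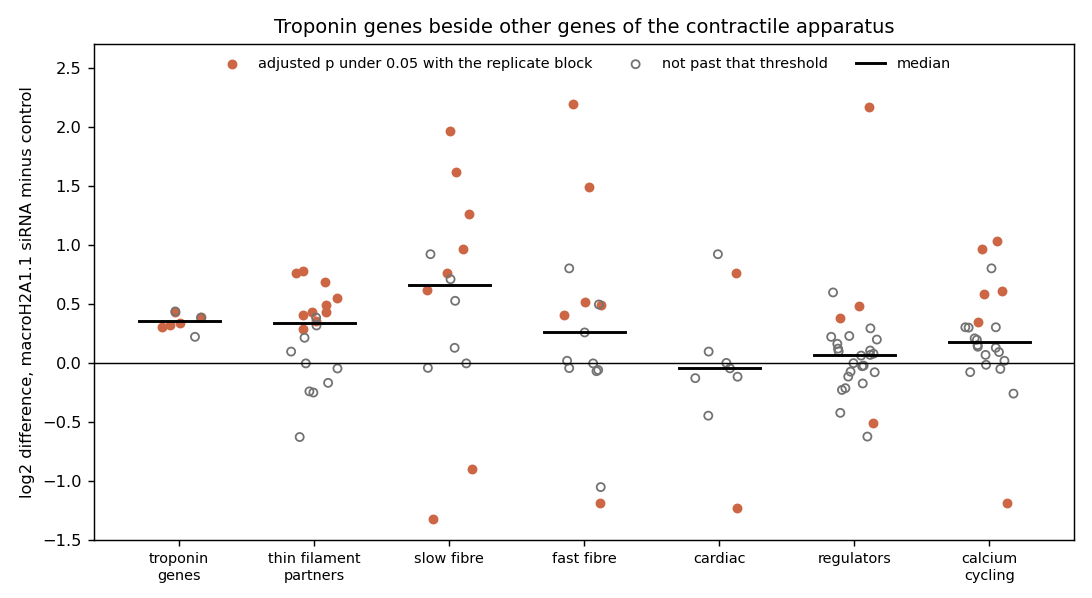
Difference in log2 signal, macroH2A1.1 siRNA minus control siRNA (y axis), of the 8 troponin genes and of each tested gene in 6 lists (x axis), with 1 probe per gene. Filled points passed an adjusted p of 0.05 in limma with the replicate block, open points did not, and bars are medians. Myl3 of the slow fibre list entered the fit only through the macroH2A1.1 siRNA group. The troponin genes lie between 0.22 and 0.43, a narrower span than any other list, whose slow and fast fibre genes reach from below -1 to about 2.

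The genes whose signal followed a troponin most closely were taken for the 3 troponin genes with the largest SD over the 8 arrays, as a description over 8 arrays that share replicate numbers and siRNA groups. For Tnni1 they were Lmod2 (r = 0.98, Spearman rho 0.95), Myoz2 (r = 0.98), a Z-disc protein of slow fibres, and Klhl41 (r = 0.98), a thin filament chaperone gene, and 161 of 13772 genes had r above 0.9. For Tnnc1 they were Psmg3 (r = 0.98), Cav3 (r = 0.97), the muscle caveolin, and Tbx3 (r = 0.97), with 188 genes above 0.9. For Tnni3, whose signal was dim, they included Rmnd1 (r = 0.97) and Pkia (r = 0.97), with 68 genes above 0.9.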

How the data were processed

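Total RNA (500 ng) was labelled with Cy3 per the labels' protocols. Each spot's intensity, as the authors deposited it, came from Agilent's Feature Extraction software (version 10.7.3.1) and had its background subtracted; the file headers name build mm9. The authors' deposited series values, whose log2 scale, background handling and equal column medians (6.29) are unstated, followed their own arrays (r between 0.9976 and 0.9995) and served as an alternative. Control spots and outlier spots (143 to 236 on each array) were left out. Log2 processed intensity was centred on the array's 75th percentile. A probe entered the comparison if it was well above background on each of the 4 arrays of at least 1 group. Two-sided tests used limma 3.58.1 (lmFit, then eBayes) under R 4.3.3, with p-values adjusted after Benjamini and Hochberg over every probe or gene in the fit and a threshold of 0.05; the steps were tested on simulated data. Pathway genes used the brightest probe per gene, named by accession through RefSeq (27509 probes) or by symbol. The number of arrays limits precision. Ratios used Python 3.11.15 and exact permutation tests.

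Named are all members, and per list up to 4 genes past the threshold with the largest change and up to 2 of highest mean that did not pass (most are given), from the fit without pairing or, where fewer than 2 passed, with it; Tpm1, Tpm2, Myh4 and Myh7b were added after their values were seen. Replicate numbers paired the samples by a rule (r above 0.1 in every pair): deviations from group means correlated at 0.58, 0.50, 0.63 and 0.35. The members and lists were chosen with earlier results of these data known. No column was of another series (0 such columns). Some genes that the naming rule takes are not reported here.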

Additional observations from a re-analysis of the deposited data

How the results depend on the processing

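Every troponin probe stayed higher in the macroH2A1.1 siRNA group under all 29 alternatives to the main setting. Many of these could not have turned the sign. Settings that change only the block, the variance or the filter repeat the same difference. Those that drop a whole pair average pair differences that all lie above 0. The lowest difference was 0.08 (Tnnc1, without control replicate 2) and the highest 0.71 (Tnni3, without control replicate 1). The median over the 10 probes fell from 0.36 to 0.23 without control replicate 2. Without pairing, 0 of 10 probes were called under any setting. With the replicate block the count was 0 of 10, also without replicate 1, 2, 3 or 4, and rose to 9 with normexp, to 5 with the deposited series values, to 3 with probes well above background on all 8 arrays and to 9 with a trended robust variance. With the block and 1 probe per gene (of 8 genes) it was 5, and 7 with normexp, 3 with quantile normalization, 2 with median centring, 5 with the series values, 7 with the 8-array filter, 7 with the trended variance and 5 with the mean of a gene's probes. Leaving out a replicate number there gave 0 to 1, and no filter gave 0. None was called lower. In the 6 pathway lists the block called 27 higher and 5 lower, normexp 38 and 8, quantile normalization 22 and 5, median centring 19 and 6, the series values 36 and 9, the 8-array filter 31 and 7, the trended variance 37 and 8, the mean of probes 23 and 5, and no filter 0 and 0. Leaving out a replicate number gave 0 to 13 higher and 0 to 4 lower. The Tnnt1 to Tnnt3 ratio difference ranged from -0.012 to 0.097 when 1 array was left out. The cause of these changes was not tested. Combinations of the block with other settings were chosen after seeing the data. Signal over background limits Tnni3.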
